A study of Mus musculus with 9 samples.

Results

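The joint effect of Wang Bi granules and tumour necrosis factor was measured in 6 RNA libraries of a series of 9, as the difference between cells given both agents and cells given neither. The 3 libraries of the group called TNF plus WBG came from cells treated with WBG (Wang Bi granules, a herbal medicine studied here for rheumatoid arthritis) together with TNF-α for 24 h, and the 3 untreated libraries received neither agent. Another group, treated with TNF-α alone for 24 h (3 libraries, called TNF), was used for comparison. The labels describe all groups as RAW264.7, a macrophage-like line of BALB/c mice grown in serum-containing medium. They give no dose of either agent and no time for the untreated cells, so time in culture cannot be told apart from the treatments. No group received WBG without TNF-α, and the labels do not say whether replicates were separate cultures. The p-values therefore measure only the spread between these samples. Genes were kept where the deposited FPKM (fragments per kilobase of transcript per mega-fragment) reached 1 in 3 or more of the 9 libraries, which left 13026 of 56289 gene identifiers. Values for a gene are given in the order of libraries 1, 2 and 3 of each group. A gene was called up or down at a limma adjusted p under 0.05 over all genes kept, and rose and fell are used only of called genes.

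TNF binds its receptor and frees NF-kB from its inhibitors, and NF-kB then switches on chemokines, adhesion molecules and its own inhibitors. Cholesterol is made from acetyl-CoA through the mevalonate pathway, whose enzymes are transcribed together by SREBP2, while SREBP1 favours fatty acid synthesis. Cells meet stress through partly separate programmes: the integrated stress response (translation control and the factor ATF4), the unfolded protein response of the endoplasmic reticulum, the heat shock response, the NRF2 antioxidant programme and the p53 response.

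The libraries did not carry the marker profile of macrophages. Of 21 macrophage markers, 2 reached a mean of 1 FPKM (Cd14 and Cd68) and 6 were listed at 0 in all 9 libraries, among them Ptprc, Itgam and Adgre1. The 21 markers summed to 6.36 to 7.64 FPKM in the untreated libraries and 8.31 to 11.2 FPKM with TNF plus WBG. Cd14, a co-receptor for bacterial lipopolysaccharide, had means of 4.59 FPKM untreated and 6.64 FPKM with TNF plus WBG and was called up (0.45 on the log2 scale, adjusted p = 0.0254), a call that ended without untreated 2, untreated 3, TNF plus WBG 1 or TNF plus WBG 2. Of 16 fibroblast markers, 12 reached a mean of 1 FPKM, with sums of 4611 to 4981 FPKM untreated and 4851 to 4994 FPKM with TNF plus WBG. Lum was listed at 0 in all 9 libraries, and Thy1, Fap and Loxl1 stayed below a mean of 1 FPKM. Dcn had a mean of 2.94 FPKM untreated, while S100a4 and Vim, at 1107 and 580 FPKM, made up part of the sum. In that list Col6a1 rose by 0.53 on the log2 scale, Postn fell by 0.56 and Pdgfrb fell by 0.54. No lymphocyte, epithelial, endothelial or granulocyte marker of the 3 further lists reached a mean of 1 FPKM. The libraries are therefore called here by their treatment labels, and no cell type is assigned. Depth is not known from FPKM, and the spacing of the values of single-exon genes corresponded to 18.9 to 26.0 M fragments per library if 1 step is 1 fragment. Only 13.3% to 22.1% of those values, by library, lay within 0.02 of a whole step, so this range is a rough inference.

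TNF plus WBG changed 1197 genes (9.19% of those tested) relative to untreated cells. Of these, 719 rose (5.52%) and 478 fell (3.67%), while the median log2 fold change of all genes was -0.00. Most changes were small: 105 genes changed by at least 2-fold (0.806%), of which 73 rose (0.56%) and 32 fell (0.246%), on the fitted scale of log2(FPKM + 1). The FPKM of the 6 libraries did not overlap between the groups for 3655 genes (28.1%). When each of the 9 libraries was left out in turn, 425 of the 719 rises and 258 of the 478 falls stayed called in every fit. TNF alone changed 1386 genes against the same untreated libraries (10.6%), with 837 up (6.43%), 549 down (4.21%) and 124 of them by at least 2-fold (0.952%), so the 2 comparisons share their controls and are set side by side only as values.

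**Figure D1:**
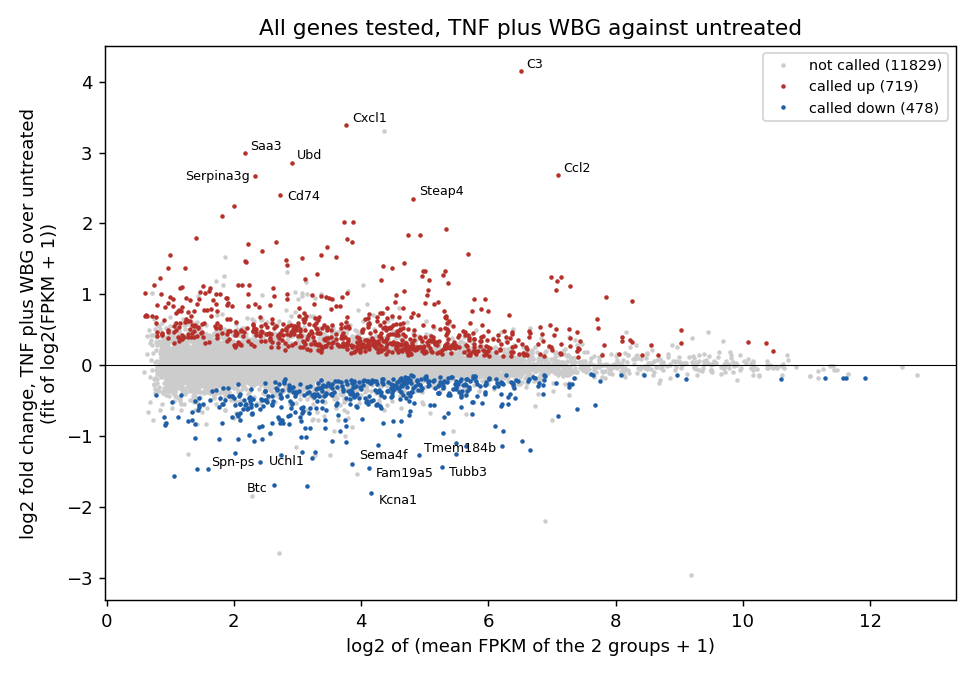
Each point is 1 of the 13026 genes tested, with the log2 of the mean FPKM of the untreated and TNF plus WBG groups plus 1 on the horizontal axis and the log2 fold change of TNF plus WBG over untreated on the vertical axis. Red points are the 719 genes called up, blue points the 478 called down and grey points genes not called, and the labelled genes are the 8 largest rises and 8 largest falls by the rule given with the processing, from C3 at 4.15 to Kcna1 at -1.81.

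The 8 largest rises included C3, Ccl2, Cd74, Ubd and Serpina3g. C3, the central complement component (ENSMUSG00000024164), was at 8.68, 9.52 and 8.11 FPKM untreated and at 165.8, 181.2 and 169.4 FPKM with TNF plus WBG, a 19.6-fold rise (log2 fold change 4.15 ± 0.06, standard error, adjusted p = 3.87e-09). Ccl2, a chemokine that attracts monocytes, was at 38.1, 32.7 and 37.1 FPKM untreated and at 229.7, 226.1 and 250.8 FPKM with TNF plus WBG, 6.55-fold higher (2.68 ± 0.06, adjusted p = 9.31e-08). In both genes every TNF plus WBG library lay above every untreated one, which the rule for the largest changes required. Cd74, which escorts MHC class II molecules, stood at 1.10 ± 0.14 FPKM untreated and at 10.2 ± 1.55 FPKM with TNF plus WBG (SD, n = 3), 9.22-fold higher. Ubd, a ubiquitin-like modifier, rose from 0.84 to 12.2 FPKM, and Serpina3g, a protease inhibitor, from 0.39 to 7.70 FPKM, with no untreated library at 1 FPKM. Both thus passed the filter only through treated libraries, and their calls add nothing to the count of rises. Log2 fold changes were 2.40 for Cd74, 2.86 for Ubd and 2.66 for Serpina3g, and with TNF alone 2.93, 3.20 and 2.74.

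The 8 largest falls included Kcna1, Tubb3 and Uchl1, all known from neurons. Kcna1, a voltage-gated potassium channel, was at 26.4, 26.2 and 27.8 FPKM untreated and at 7.0, 6.14 and 7.75 FPKM with TNF plus WBG, 3.85-fold lower (log2 fold change -1.81 ± 0.08, adjusted p = 2.57e-06). Tubb3, the neuronal class III tubulin, fell from 55.3 ± 2.29 to 19.8 ± 1.5 FPKM (-1.44), and Uchl1, a ubiquitin hydrolase abundant in neurons, fell from 12.4 to 4.43 FPKM (-1.31). Sema4f, a semaphorin, fell from 19.9 ± 0.34 to 6.96 ± 0.09 FPKM (-1.39), and Btc, a ligand of the EGF receptor, from 8.52 to 1.93 FPKM (-1.69). Fam19a5, which encodes a secreted protein, fell from 24.5 to 8.40 FPKM (-1.45), and the pseudogene Spn-ps from 6.63 to 1.95 FPKM (-1.37). In bulk libraries such as these, fewer cells of a kind and less RNA per cell cannot be told apart. With TNF alone, log2 fold changes against untreated were -2.07 for Kcna1, -1.72 for Tubb3 and -1.63 for Sema4f.

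The NF-kB list, kept as a reference for the response to TNF, held 27 called genes among 32 tested, all upward (84.4%, against 9.19% of all genes), with a median log2 fold change of 1.27. Of these, 6 reached 1 FPKM in no untreated library and passed the filter only through treated libraries, which leaves 21 other rises. Among its inhibitors Nfkbia (IkB-alpha) was at 25.2, 26.0 and 22.8 FPKM untreated and at 74.1, 77.5 and 74.5 FPKM with TNF plus WBG (log2 fold change 1.57 ± 0.05). Nfkbie rose from 4.78 to 22.4 FPKM, the subunit Relb from 5.21 to 20.4 FPKM, and the deubiquitinase Tnfaip3 from 4.31 to 15.9 FPKM. All calls but that of Birc2 held in every omission of 1 library. Nfkbia, Nfkbie, Relb, Tnfaip3 and Birc2 were chosen after their values were seen. The other 5 tested members, Bcl2l1, Rela, Cflar, Sod2 and Ptgs2, were not called, with log2 fold changes of 0.52, 0.16, 0.12, -0.01 and -0.32. Il6, Il1b and Tnf did not pass the filter and were not tested. Against the same untreated libraries, TNF alone gave 27 calls in this list, also all upward, with a median of 1.19.

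Promoter windows (250 bases before to 50 bases after the RefSeq start, GRCm38.p6) were available for 9250 of the genes tested. They are shown for Cxcl1 and Nfkbia because both hold a run that fits the pattern of an NF-kB element, which was searched on both strands and is printed in capitals. Cxcl1 is at chr5:90890995-90891294 on the plus strand, with matches that start at -89, -71 and -70 relative to the start, the last 2 overlapping on opposite strands. Nfkbia is at chr12:55492598-55492897 on the minus strand, with 1 match at -29.
Cxcl1: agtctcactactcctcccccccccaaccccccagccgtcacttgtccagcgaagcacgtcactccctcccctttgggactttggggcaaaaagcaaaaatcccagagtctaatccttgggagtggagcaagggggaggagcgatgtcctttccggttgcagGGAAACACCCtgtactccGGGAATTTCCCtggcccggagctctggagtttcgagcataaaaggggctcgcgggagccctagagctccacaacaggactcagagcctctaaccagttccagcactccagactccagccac
Nfkbia: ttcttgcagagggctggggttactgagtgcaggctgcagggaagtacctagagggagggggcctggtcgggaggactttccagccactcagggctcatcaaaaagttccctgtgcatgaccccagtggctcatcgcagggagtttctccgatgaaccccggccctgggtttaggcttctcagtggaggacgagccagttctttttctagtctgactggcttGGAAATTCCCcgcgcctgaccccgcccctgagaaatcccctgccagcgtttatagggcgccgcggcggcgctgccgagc
The pattern was found in 5.52% of all 27025 windows and in 6.25% of those of genes tested. It was found in 11 of the 23 tested NF-kB list members with a window, all of them among the 18 called up. Il6, which was not tested, also holds a match, at -44. A match is only a run of letters and does not show binding.

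Few genes differed between TNF plus WBG and TNF alone. In that comparison 13 genes were called (0.0998%), 9 upward (0.0691%) and 4 downward (0.0307%), and 4 of the 13 changed by at least 2-fold on the fitted scale, 3 upward (0.023%) and 1 downward (0.00768%). The downward count was 1 without untreated 1 and 2 without untreated 3. The upward count was 6 without TNF 2 or without TNF 3. The genes Steap4, Cxcl1, Saa3, Tfrc, Actr3, Zmym1 and Tmem184b stayed called in every omission of 1 library.

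Of the 9 genes higher than with TNF, 7 were also called up against untreated: Cxcl1, Steap4, Saa3, Tfrc, Actr3, Cbr2 and Spp1. Saa3 reached 1 FPKM in no untreated library and passed the filter only through treated libraries. Its call against untreated therefore adds nothing to this count. Cxcl1, a chemokine that attracts neutrophils (ENSMUSG00000029380), was at 1.37, 1.52 and 1.22 FPKM untreated, at 11.3, 10.5 and 9.37 FPKM with TNF and at 20.4, 26.6 and 24.7 FPKM with TNF plus WBG. It was 17.4-fold higher than untreated and 2.29-fold higher than TNF alone (log2 fold change 1.12 ± 0.11, adjusted p = 0.00514), with no overlap among the 3 groups. Steap4, a metalloreductase that reduces iron and copper, was at 8.00, 8.61 and 8.20 FPKM untreated, at 25.6, 25.9 and 25.0 FPKM with TNF and at 42.3, 51.9 and 44.8 FPKM with TNF plus WBG. It lay 5.60-fold above untreated (adjusted p = 4.26e-07) and 1.81-fold above TNF (0.83 ± 0.07, adjusted p = 0.00399). Saa3, an acute-phase serum amyloid, was listed at 0 in the 3 untreated libraries, at 0.79, 1.71 and 1.43 FPKM with TNF and at 5.91, 8.42 and 6.73 FPKM with TNF plus WBG. Its difference from TNF was 1.81 ± 0.16 on the log2 scale (adjusted p = 0.00514). Tfrc, the transferrin receptor that brings iron into cells, was at 37.1, 37.1 and 35.4 FPKM untreated, at 42.3, 36.7 and 43.1 FPKM with TNF and at 72.2, 73.2 and 67.8 FPKM with TNF plus WBG. It stood 1.95-fold above untreated (0.94 ± 0.06) and 1.74-fold above TNF (0.79 ± 0.06, adjusted p = 0.00384), while TNF alone gave 0.15 against untreated (adjusted p = 0.187). Actr3, a subunit of the Arp2/3 complex that nucleates actin, was at 70.7, 67.0 and 69.7 FPKM untreated and 89.2, 91.7 and 91.1 FPKM with TNF plus WBG, 1.28-fold above TNF (0.36 ± 0.03, adjusted p = 0.00514).

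Tmem184b, a membrane protein, was at 43.5, 39.6 and 40.8 FPKM untreated, at 45.1, 44.3 and 46.0 FPKM with TNF and at 17.6, 16 and 15.9 FPKM with TNF plus WBG, 2.50-fold below untreated (log2 fold change -1.27 ± 0.05) and -1.40 against TNF (adjusted p = 1.3e-05). Abr, a regulator of small GTPases, was at 17.3, 16.6 and 18.3 FPKM untreated and at 10.4, 10.7 and 12.6 FPKM with TNF plus WBG (-0.59 against untreated, -0.60 against TNF). Zmym1, a zinc finger gene, was at 6.39, 5.64 and 6.93 FPKM untreated, 1.67, 1.92 and 2.41 FPKM with TNF and 6.96, 6.23 and 6.0 FPKM with TNF plus WBG, so that only the TNF libraries were low. Some genes in these files moved between separate levels from library to library within 1 group: Map2k7, chosen after its values were seen, was at 4.96, 16.4 and 5.28 FPKM in the untreated libraries. Whether this bears on Tmem184b, Abr and Zmym1 was not tested. Spp1 (osteopontin) was at 91.9 FPKM untreated, 80.7 FPKM with TNF and 101.3 FPKM with TNF plus WBG, called up in both comparisons (0.14 and 0.33). Cbr2, a carbonyl reductase, had means of 29.5, 37.9 and 48.1 FPKM in the same order (0.69 against untreated, 0.33 against TNF, adjusted p = 0.0476). Armt1, a methyltransferase, and Afg3l1, a subunit of a mitochondrial protease, differed from TNF (0.85 and -0.46) and were not called against untreated (0.39 and -0.06). The transcript 2210412B16Rik was lower than in both groups, at 0.47 FPKM against 0.97 FPKM untreated and 1.47 FPKM with TNF. At that mean it could not pass the filter without libraries of the groups where it was higher. Its calls therefore add nothing to the downward counts. Against untreated, omission of 1 library ended the calls of Spp1 (any but TNF 1 and TNF 2) and 2210412B16Rik (any of the 6 libraries compared). Against TNF, it ended those of Abr (untreated 1, TNF 1, TNF 2, TNF 3, TNF plus WBG 1 or 2), Spp1 (TNF 2, TNF 3 or TNF plus WBG 1), Cbr2 (any but untreated 3), Armt1 (any but untreated 2), 2210412B16Rik (any but TNF 1) and Afg3l1 (any but untreated 2 and TNF plus WBG 2).

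The metabolism and stress functions were read through 27 lists with 938 genes. Lists with more than 25% of their tested genes called against untreated were cholesterol synthesis (52.4%), p53 targets (42.9%), the integrated stress response (41.9%), control of cholesterol (37.5%), glycolysis (28.6%), NRF2 and glutathione (28.1%) and xenobiotic metabolism (26.3%). The share over all genes was 9.19%. Of the 4 xenobiotic rises, Abcb1a reached 1 FPKM in no untreated library and passed the filter only through treated libraries. That leaves 3 other rises, and the place of this list above 25% rests on Abcb1a. Nuclear genes of the respiratory chain (2.74%), fatty acid oxidation (3.03%), NAD metabolism (6.25%), sphingolipids (6.9%) and endoplasmic reticulum folding (7.5%) lay below it. Against TNF alone the 27 lists held 3 called genes, Cbr2, Steap4 and Tfrc, so for every other member below a difference from TNF was not called. In the text below, the libraries whose single omission ended a call are given after the gene as U1 to U3 (untreated), T1 to T3 (TNF) and W1 to W3 (TNF plus WBG). Members named in the lists below that the naming rule given with the processing does not choose were picked after their values were seen.

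**Figure D2:**
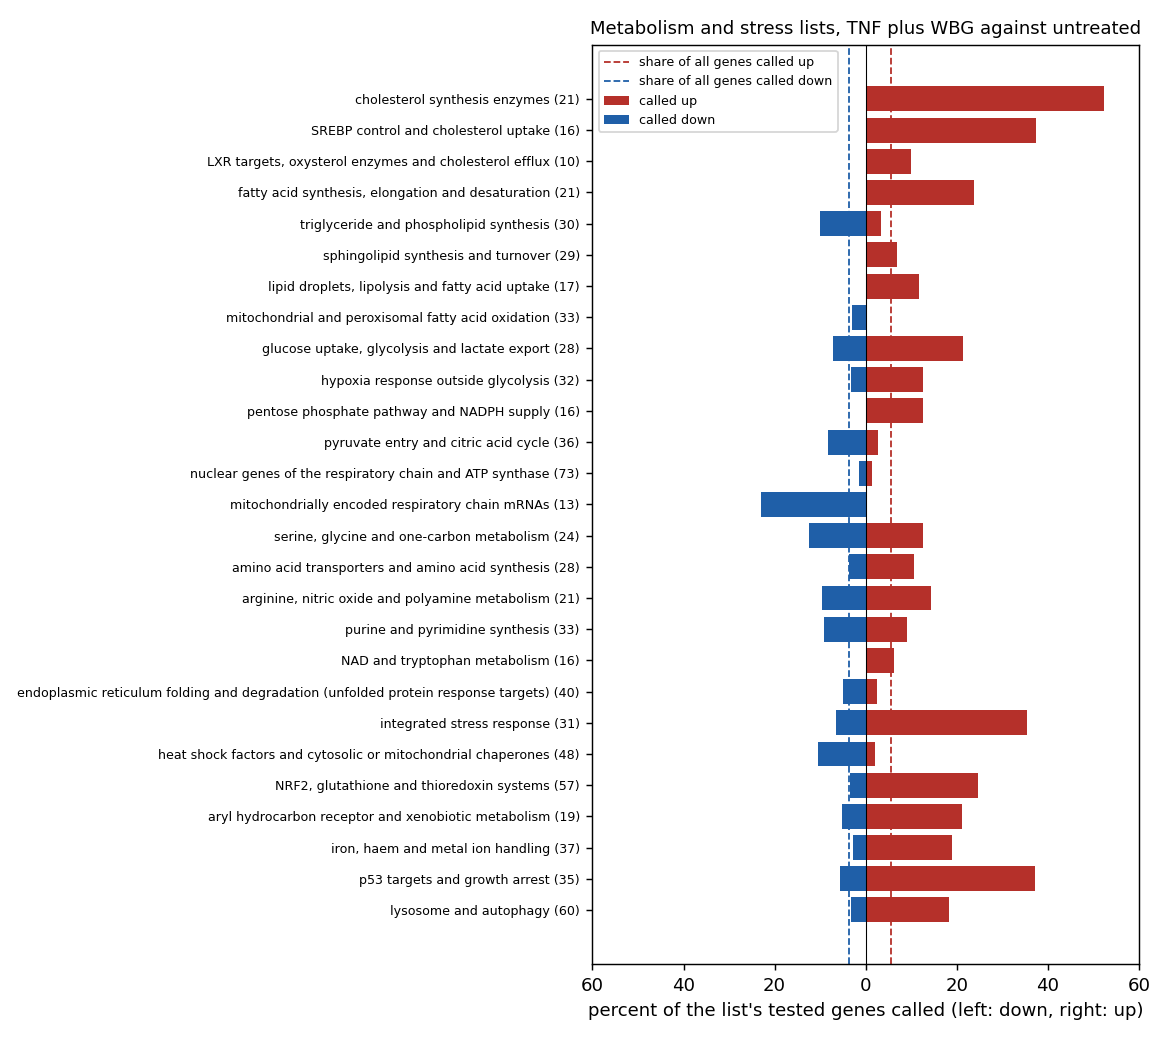
Bars show the percent of each list's tested genes called up (red, to the right) or down (blue, to the left) in TNF plus WBG against untreated, with the number tested in brackets, and dashed lines mark the shares over all genes (5.52% up and 3.67% down). Cholesterol synthesis has the longest bar to the right, with 11 of 21 genes, and no bar to the left.

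Of the cholesterol synthesis enzymes 11 of 21 rose with TNF plus WBG, from the first steps to the last, and none fell. The median log2 fold change was 0.27, and 20 of 21 were above 0, whereas 6406 of all 13026 genes were. The summed level was 750.3 to 789.3 FPKM in the untreated libraries and 912.5 to 990.9 FPKM with TNF plus WBG. Hmgcs1, which makes HMG-CoA at the head of the pathway, was at 69.8, 65.5 and 68.6 FPKM untreated and at 86.5, 91.9 and 79.7 FPKM with TNF plus WBG (log2 fold change 0.33 ± 0.05, adjusted p = 0.00451). Each TNF plus WBG library lay above every untreated one. Mvd, which makes isopentenyl pyrophosphate, rose 1.43-fold from 22.7 ± 1.12 to 32.5 ± 3.89 FPKM (0.49 ± 0.09), and Fdps, which makes farnesyl pyrophosphate, rose 1.38-fold from 140.4 ± 11.6 to 194.4 ± 5.81 FPKM (0.47 ± 0.06, adjusted p = 0.00148). Acat2, which makes acetoacetyl-CoA, had the largest change of the list, from 47.1 to 70.7 FPKM (0.57 ± 0.13, adjusted p = 0.0296; any of the 6 libraries compared).

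Further down the pathway, Mvk, mevalonate kinase, rose from 17.2 to 22.1 FPKM and Cyp51, the lanosterol demethylase, from 53.9 to 69.5 FPKM. Pmvk rose from 16.1 to 21.4 FPKM (U1, U3, W2), Dhcr7, the last enzyme of one branch, by 0.32 on the log2 scale (U1, U3, W1, W2), Nsdhl from 39.7 to 48.3 FPKM (U3, W2) and Sc5d from 20.6 to 24.9 FPKM (U1, U2, U3, T3, W1, W2). The squalene enzymes were not called, with log2 fold changes of -0.18 for Fdft1 and 0.10 for Sqle. Hmgcs1, Mvk, Mvd, Fdps and Cyp51 stayed called in every omission of 1 library. The count of 11 was 6 without U1, 6 without U3, 7 without W1, 5 without W2 and 7 with no filter on low genes. TNF alone, against the same untreated libraries, gave 5 called members, none down, and a median of 0.16.

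**Figure D3:**
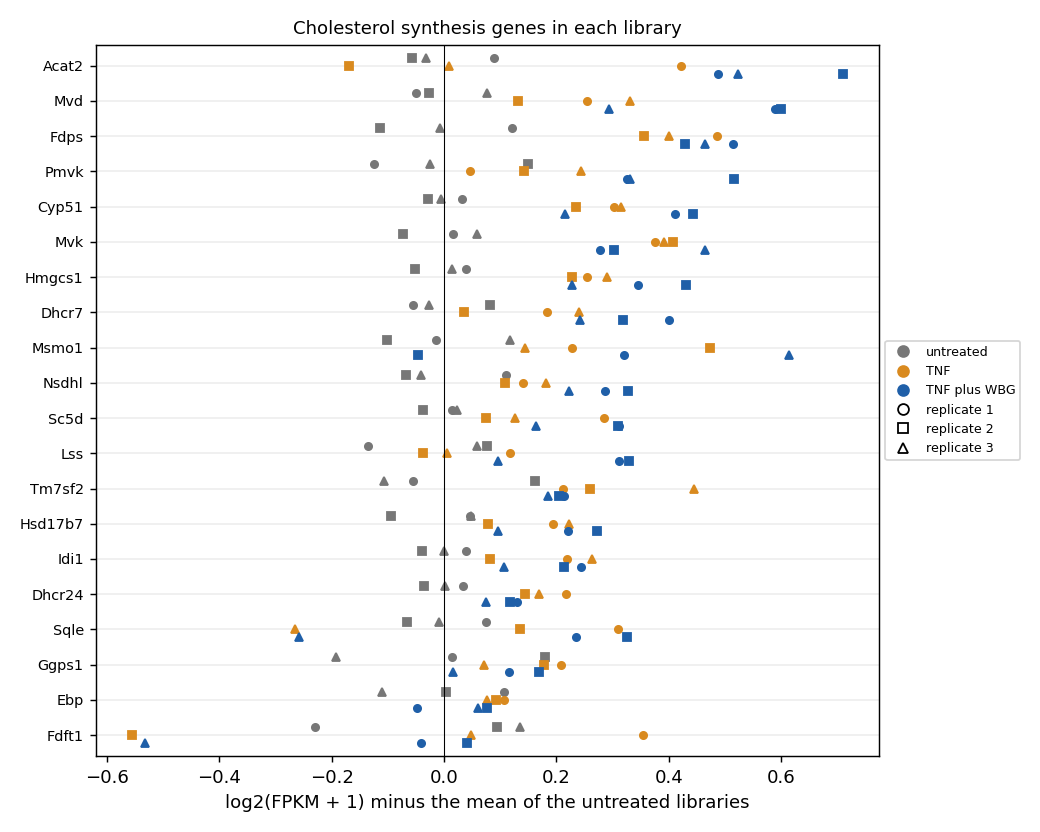
Each row is 1 of 20 of the cholesterol synthesis genes, ordered by fold change, and each symbol is 1 library (grey untreated, orange TNF, blue TNF plus WBG, shape for the replicate), placed at its log2(FPKM + 1) minus the mean of the untreated libraries. Acat2 is at the top with 0.57 and Fdft1 at the bottom with -0.18 for TNF plus WBG.

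The Hmgcs1 window is shown because it held the only match among the 16 cholesterol synthesis genes with a window to TCACNCCAC, the pattern used for a sterol element and searched on both strands. It is at chr13:119690101-119690400 on the plus strand, with the match in capitals at -137, and it was chosen after the values were seen.
Hmgcs1: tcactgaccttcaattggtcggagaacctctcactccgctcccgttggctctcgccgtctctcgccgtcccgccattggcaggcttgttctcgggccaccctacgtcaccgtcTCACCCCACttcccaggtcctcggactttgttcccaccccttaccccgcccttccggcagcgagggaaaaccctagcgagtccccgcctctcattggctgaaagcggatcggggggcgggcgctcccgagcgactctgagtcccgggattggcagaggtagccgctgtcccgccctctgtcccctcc
The pattern occurred in 1.22% of all 27025 windows. No match says only that these letters are not in the window.

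Of 16 tested genes that control cholesterol or move it between compartments, 6 rose and none fell (median log2 fold change 0.18). Insig1, which retains the SREBP complex in the endoplasmic reticulum and is itself induced by SREBP, was at 110.7, 109.0 and 114.5 FPKM untreated and at 136.7, 142.6 and 126.5 FPKM with TNF plus WBG (0.28 ± 0.05, adjusted p = 0.0101). The groups did not overlap. Npc2, which moves cholesterol out of lysosomes, rose from 74.0 to 89.1 FPKM (0.26 ± 0.04), and its partner Npc1 from 11.0 to 13.5 FPKM (U1, U2, U3, W1, W2). Scarb1, a lipoprotein receptor, rose from 30.4 to 38.4 FPKM (U1, U2, U3, T2, W1, W2, W3), and Stard4, a sterol carrier, from 15.7 to 19.0 FPKM (U1, U2, U3, T1, W1, W2). Srebf1 rose from 52.5 ± 3.24 to 60.3 ± 1.15 FPKM (0.20 ± 0.05, adjusted p = 0.0355; U1, U3, T1, T3, W1, W2, W3). Srebf2 was at 84.1 and 93.4 FPKM (0.15, adjusted p = 0.088) and was not called. Only Insig1 and Npc2 stayed called in every omission. The count of 6 was 2 without U1, U3, W1 or W2, and 3 without U2, with no filter or without a trend of the spread. Of 10 efflux genes tested, Abca7, a lipid transporter, rose from 8.43 to 10.3 FPKM (0.27; U1, W1). In that list 10% of the genes tested were called, against 9.19% of all genes. Apoe was at -0.51 and Abca1, the main cholesterol exporter, at -0.08, neither called. Nr1h3 (LXR-alpha) lay between 0.23 and 1.02 FPKM in the 6 libraries and was not tested.

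Of 21 fatty acid synthesis genes tested 5 rose, 4 of them in the supply of acetyl-CoA or NADPH, and none fell (23.8%, median log2 fold change 0.06). Acly, which makes cytosolic acetyl-CoA from citrate, was at 118.7, 114.7 and 117.5 FPKM untreated and at 139.9, 141.0 and 128.3 FPKM with TNF plus WBG (0.22 ± 0.04, adjusted p = 0.0114). Slc25a1, the carrier that exports citrate from mitochondria, rose from 56.4 to 65.2 FPKM (0.21; U1, U3, W1), and Acss2, which makes acetyl-CoA from acetate, from 5.23 to 8.13 FPKM (0.55 ± 0.13; U2, U3, W1, W2). Me1, the cytosolic malic enzyme that yields NADPH, was at 28.9, 29.9 and 26.8 FPKM untreated and at 37.6, 39.2 and 33.7 FPKM with TNF plus WBG (0.36 ± 0.07, adjusted p = 0.00946). Fads3, of the desaturase family, rose from 31.3 to 39.3 FPKM (0.32 ± 0.05). Fasn, the synthase, was at 91.0, 88.0 and 88.9 FPKM untreated and at 84.8, 85.0 and 73.1 FPKM with TNF plus WBG (-0.14, adjusted p = 0.377). Acaca, the carboxylase, was at -0.11 (adjusted p = 0.376) and Scd1, the main desaturase, at 0.11 (adjusted p = 0.203). Scd2 was at 347.5, 107.1 and 107.1 FPKM untreated and at 118.9, 124.6 and 112.6 FPKM with TNF plus WBG, so 1 untreated library stood apart (adjusted p = 0.595). Without U3 the count of 5 was 3.

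Of 30 phospholipid and triglyceride genes tested 1 rose, 3 fell and 26 were not called (median 0.02). The share called was 13.3%, against 9.19% of all genes. Pcyt2, the regulated step of phosphatidylethanolamine synthesis, was at 78.7, 88.1 and 86.3 FPKM untreated and at 119.6, 122.5 and 105.0 FPKM with TNF plus WBG (0.45 ± 0.07, adjusted p = 0.00457). Pcyt1a, its counterpart in phosphatidylcholine synthesis, was at 11.3, 13.1 and 14.4 FPKM untreated and at 6.38, 7.54 and 5.77 FPKM with TNF plus WBG, 1.97-fold lower (-0.88 ± 0.16, adjusted p = 0.0091). Pcyt2 was higher and Pcyt1a lower in every TNF plus WBG library than in any untreated one. Dgat2, which completes triglyceride synthesis, fell from 9.91 to 7.25 FPKM (-0.40 ± 0.08), and Chka, choline kinase, from 35.4 to 28.6 FPKM (-0.30; U2, U3, T1, W1, W2, W3). The upward count was 2 without U1 or W3. Of 29 sphingolipid genes 2 rose, among them B4galt5, a lactosylceramide synthase, from 12.2 to 16.5 FPKM (0.40; U1, U2, W2). Among 17 lipid droplet and uptake genes Acsl4, an acyl-CoA synthetase, rose by 0.21 on the log2 scale (all but W3) and Slc27a1, a fatty acid transporter, by 0.20 (U1, U3, W1, W2). These were 11.8% of the list, against 9.19% of all genes. Of 33 fatty acid oxidation genes only Acaa2, the mitochondrial thiolase, was called, from 36.6 down to 31.3 FPKM (-0.22 ± 0.05; U1, U3, W1, W2). That list had 1 rise and 2 falls without W3. Cpt1a, the entry step of oxidation, was at 40.7 and 37.4 FPKM (-0.12, adjusted p = 0.0808).

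Of 28 glycolysis genes tested 6 rose, 2 fell and 20 were not called, with 21 above 0 and a median of 0.21. Slc2a6, a member of the glucose transporter family, was at 1.96, 2.21 and 1.6 FPKM untreated and at 8.27, 8.59 and 9.34 FPKM with TNF plus WBG, 4.54-fold higher (1.74 ± 0.10, adjusted p = 9.29e-06). Hk1, a hexokinase, was at 60.4, 62.5 and 60.5 FPKM untreated and at 79.3, 83.6 and 72.0 FPKM with TNF plus WBG (0.35 ± 0.05). Neither gene's groups overlapped, and these 2 rises held in every omission. Pfkl, a phosphofructokinase, rose from 99.5 ± 11.4 to 148.6 ± 24.8 FPKM (0.57 ± 0.12; U1, U3), Tpi1 from 236.7 to 312.5 FPKM (0.40; U3, W1, W2), Pkm from 1177 to 1458 FPKM (0.31; U3, W2) and Ldha, lactate dehydrogenase A, from 463.6 to 574.2 FPKM (0.31; W1, W2). Hk2 was at 23.4 and 24.6 FPKM (0.06, adjusted p = 0.692), and Gapdh, which has many near-identical copies, at 428.2 ± 68.1 and 519.8 ± 68.8 FPKM (0.28, adjusted p = 0.229). The falls were Pfkfb4, which sets fructose 2,6-bisphosphate, from 10.2 to 6.01 FPKM (-0.68 ± 0.07), and Aldoc, an aldolase of brain, at 8.42, 7.77 and 9.21 FPKM untreated and 3.21, 2.54 and 3.04 FPKM with TNF plus WBG (-1.27 ± 0.12, adjusted p = 0.000251). The upward count was 3 without U3, without W2 or with no filter.

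In the hypoxia list, of 32 genes tested 4 rose and 1 fell (15.6% called, against 9.19% of all genes). In it 28 were above 0, whereas 6406 of all 13026 genes were, and the median was 0.35. Angptl4, an inhibitor of lipoprotein lipase, was at 23.1, 27.1 and 22.3 FPKM untreated and at 42.3, 45.0 and 46.4 FPKM with TNF plus WBG (0.86 ± 0.09, adjusted p = 0.000413). Egln3, an oxygen-sensing prolyl hydroxylase, was at 34.0, 37.9 and 30.5 FPKM untreated and at 50.9, 56.9 and 43.9 FPKM with TNF plus WBG (0.55 ± 0.10). Bhlhe40, a clock-linked repressor, rose from 31.7 to 46.5 FPKM (0.53; U1, U3, T1, T2, T3, W1, W2), and Fam162a, a mitochondrial protein, from 134.0 to 176.8 FPKM (0.39; U1, U3). Egr1, an immediate early factor, fell from 7.41 to 3.81 FPKM (-0.81 ± 0.08). Hif1a itself was at 32.6, 39.2 and 35.0 FPKM untreated and at 35.9, 34.2 and 39.3 FPKM with TNF plus WBG (0.04, adjusted p = 0.877). The median of the list, relative to the untreated mean, was 0.33 in W1, 0.55 in W2 and 0.12 in W3, beside -0.04, 0.13 and -0.11 in the untreated libraries. W3 thus lay below U2. The glycolysis medians followed the same order, 0.17, 0.29 and 0.11 in W1 to W3. The count of 4 rises was 14 without W3, 7 without U2, 2 without U1 or U3 and 2 with no filter. Ak4, an adenylate kinase, was highest in W1 alone, at 23.8 FPKM, with 4.34 and 3.59 FPKM in W2 and W3.

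**Figure D4:**
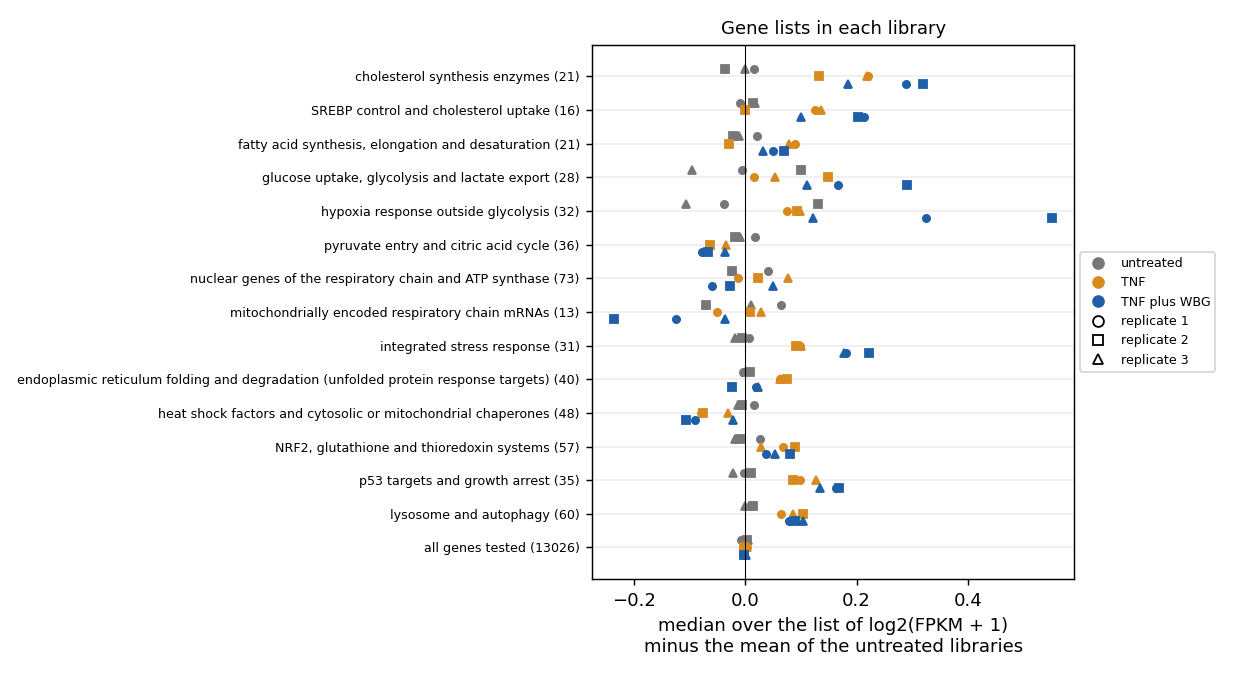
Each row is a gene list with its number of tested genes, and each symbol is 1 library (grey untreated, orange TNF, blue TNF plus WBG, shape for the replicate), placed at the median over the list of log2(FPKM + 1) minus the untreated mean. The hypoxia list is the most spread, from 0.12 to 0.55 among the 3 TNF plus WBG libraries, while the integrated stress list runs from 0.18 to 0.22 and all genes lie close to 0.

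Of 36 genes of the citric acid cycle 1 rose, 3 fell (11.1% called, against 9.19% of all genes) and 28 were below 0 (median -0.05). Pcx, pyruvate carboxylase, rose from 8.78 to 10.7 FPKM (0.27 ± 0.05). Sdhb, the iron-sulphur subunit of succinate dehydrogenase, was at 68.5, 64.1 and 66.6 FPKM untreated and at 55.2, 51.5 and 57.7 FPKM with TNF plus WBG (-0.27 ± 0.05, adjusted p = 0.00944). Mdh1, the cytosolic malate dehydrogenase, fell from 68.6 to 52.4 FPKM (-0.38; U1, U2, U3, W1, W2). The cycle counts were 3 rises without W3 and 1 fall without U1, U3 or W2. Of 73 nuclear respiratory chain genes 2.74% were called: Uqcrc1 of complex III fell from 87.7 ± 1.86 to 74.5 ± 2.47 FPKM (-0.23 ± 0.04), Ndufc1 of complex I rose by 0.20 (U2, U3, T2, W1, W2, W3), and the median was -0.01. The upward count of that list was 2 without T1, and the downward count 2 without U2, U3 or W3. Of the 13 mRNAs encoded by mitochondria 3 fell (23.1%) and 11 were below 0 (median -0.14): mt-Nd4 (-0.19), mt-Atp6 (-0.18) and mt-Cytb (-0.18). All 3 calls ended without any one of U1, U3, T1, T2, T3, W1 and W2, and the list's median was -0.12, -0.23 and -0.04 in W1 to W3. For the pentose phosphate list, 2 of 16 rose, Me1 and Idh1 (12.5% called, against 9.19% of all genes). Idh1, a cytosolic source of NADPH, rose by 0.25, a call that ended without any one of U2, U3, T2, W1, W2 and W3. G6pdx, the entry enzyme, was at 30.2 and 32.0 FPKM (0.08, adjusted p = 0.578).

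The amino acid, nucleotide and NAD lists had medians between -0.04 and 0.09. Shares called were 25% for one-carbon, 14.3% for amino acid, 23.8% for polyamine and arginine, 18.2% for nucleotide and 6.25% for NAD genes. Over all genes the share was 9.19%. In one-carbon metabolism 3 of 24 genes rose and 3 fell. Mthfd2, the mitochondrial folate enzyme, was at 15.4, 15.3 and 13.5 FPKM untreated and at 20.7, 18.9 and 18.2 FPKM with TNF plus WBG (0.36 ± 0.06, adjusted p = 0.00754). Slc25a32, which carries folate into mitochondria, fell from 7.91 to 5.85 FPKM (-0.38 ± 0.07). The other calls there were Mthfd1l (0.28; U1, U3, T1, T2, T3, W1, W2), Aldh1l2 (0.25; U1, U2, U3, T2, W1, W2), the folate carrier Slc19a1 (-0.32; all but U2) and Gcsh of glycine cleavage (-0.21; U2, U3, W1, W2). That list had 1 rise without U1, U3, T2, W1 or W2 and 1 fall without U3, W1 or W2. Among 28 amino acid genes Pycr1, which makes proline, rose from 6.99 to 10.6 FPKM (0.52 ± 0.09), Slc43a2, a neutral amino acid carrier, from 10.0 to 14.1 FPKM (0.46 ± 0.07) and Glul, glutamine synthetase, from 18.9 to 21.1 FPKM (0.15; any of the 9). Slc6a6, the taurine transporter, was at 131.0 ± 1.81 FPKM untreated and at 98.7 ± 2.88 FPKM with TNF plus WBG (-0.41 ± 0.04, adjusted p = 0.000162), and the downward count was 2 without W2.

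In polyamine and arginine metabolism 3 of 21 genes rose and 2 fell. The falls were in synthesis: Srm, spermidine synthase, was at 120.8, 116.0 and 120.9 FPKM untreated and at 96.7, 96.0 and 99.6 FPKM with TNF plus WBG (-0.29 ± 0.04, adjusted p = 0.00154), and Amd1, which supplies the aminopropyl group, fell from 47.6 to 37.4 FPKM (-0.34 ± 0.06). Azin2, an antizyme inhibitor, rose from 15.9 to 23.5 FPKM (0.54 ± 0.07), Sat1, which acetylates polyamines, from 35.3 to 42.8 FPKM (0.27; U1, U2, U3, W1, W3) and Ddah2, of methylarginine breakdown, from 36.1 to 43.0 FPKM (0.25 ± 0.04). Of 33 nucleotide genes 3 rose and 3 fell. Xdh, xanthine dehydrogenase, was at 14.4, 17.4 and 14.5 FPKM untreated and at 21.5, 27.9 and 25.7 FPKM with TNF plus WBG (0.66 ± 0.10, adjusted p = 0.00341). Ctps, CTP synthase, rose from 33.4 ± 1.43 to 47.2 ± 1.11 FPKM (0.49 ± 0.04) and Ctps2 by 0.19 (U1, U2, W1, W2, W3). The falls were Gart (-0.26 ± 0.05), Cad (-0.23; U3, W2) and Atic (-0.20; U1, U3, W1, W2), and their count was 1 without U3 or W2. Nampt, the regulated step of NAD salvage, was the 1 called gene of 16 in its list, from 16 to 19.9 FPKM (0.30, adjusted p = 0.0391; all but W3), and that list gained 1 fall without W3.

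Of 31 integrated stress response genes tested 11 rose, 2 fell and 18 were not called (41.9% called, median 0.19), and its median in the 3 TNF plus WBG libraries was 0.18, 0.22 and 0.18. Trib3, a pseudokinase induced by ATF4, was at 6.44, 6.60 and 6.32 FPKM untreated and at 11.8, 11.4 and 9.34 FPKM with TNF plus WBG, 1.68-fold higher (0.66 ± 0.08, adjusted p = 0.000945). Ddit3 (CHOP), the stress-induced C/EBP factor, was at 25.3, 22.7 and 24.7 FPKM untreated and at 38.0, 37.0 and 34.2 FPKM with TNF plus WBG, 1.5-fold higher (0.57 ± 0.05, adjusted p = 0.00026). Nupr1, a stress-induced chromatin protein, was at 39.7, 40.3 and 44.4 FPKM untreated and at 72.4, 84.8 and 83.3 FPKM with TNF plus WBG, 1.93-fold higher (0.93 ± 0.09, adjusted p = 0.00034). In these 3 genes all TNF plus WBG libraries lay above all untreated ones. Chac1, which degrades glutathione, rose from 3.35 to 5.38 FPKM (0.55 ± 0.10), and Atf5, a factor of the ATF4 family, from 38.7 to 52.2 FPKM (0.42 ± 0.03, adjusted p = 8.95e-05). Of the kinases that start the response, Eif2ak3 (PERK) rose from 11.9 to 14.8 FPKM (0.29 ± 0.05), and Eif2ak1, Eif2ak2 and Eif2ak4 were not called.

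Atf3, an early stress factor, was at 63.1, 62.0 and 62.7 FPKM untreated and at 25.3, 23.6 and 28.0 FPKM with TNF plus WBG, 2.44-fold lower (-1.26 ± 0.06, adjusted p = 5.62e-06). Stc2, a secreted glycoprotein, fell from 31.2 ± 1.26 to 15.2 ± 0.98 FPKM (-0.99 ± 0.06). Atf4, the central factor, was at 108.1, 102.4 and 120.3 FPKM untreated and at 118.2, 132.3 and 129.4 FPKM with TNF plus WBG, overlapping groups that were not called (0.20 ± 0.08, adjusted p = 0.181). Asns, the ATF4 target that makes asparagine, was at 0.11 and not called, and of the tRNA synthetases in the list Cars and Aars rose (0.32 and 0.22) while Gars, Mars, Nars, Sars and Wars were not called. All calls but that of Sesn2 (U1, U3, W1, W2) held in every omission of 1 library. With TNF alone, against the same untreated libraries, 10 rose and 2 fell, and the log2 fold changes were 0.30 for Trib3, 0.41 for Ddit3, 0.78 for Nupr1 and -1.55 for Atf3.

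The windows of Trib3 and Nupr1 are shown, chosen after the values were seen, since both rose and both hold a match (in capitals) to TGATGNAAN, the pattern used for an element bound by C/EBP and ATF factors. Both matches are on the strand opposite to the printed one. Trib3 is at chr2:152344011-152344310 on the minus strand, with the match at 14 bases after the start, and Nupr1 at chr7:126625421-126625720 on the minus strand, with the match at -111.
Trib3: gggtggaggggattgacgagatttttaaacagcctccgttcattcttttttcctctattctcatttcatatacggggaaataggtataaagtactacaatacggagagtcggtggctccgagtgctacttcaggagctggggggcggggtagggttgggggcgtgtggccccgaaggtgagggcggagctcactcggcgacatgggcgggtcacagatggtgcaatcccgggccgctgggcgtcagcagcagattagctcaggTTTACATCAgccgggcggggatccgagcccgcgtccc
Nupr1: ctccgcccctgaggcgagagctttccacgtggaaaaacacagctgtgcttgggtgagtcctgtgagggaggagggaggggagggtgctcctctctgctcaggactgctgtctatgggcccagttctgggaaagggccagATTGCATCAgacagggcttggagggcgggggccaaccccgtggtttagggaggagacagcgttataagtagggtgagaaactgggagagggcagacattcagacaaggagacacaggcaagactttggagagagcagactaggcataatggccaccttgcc
Searched on both strands, the pattern occurred in 4.04% of all windows and in 2% of those of genes tested. It occurred in 8 of the 25 tested members of this list with a window. Of its 9 members called up with a window, 4 held it. Atf3, which fell, also holds 1 match, at -111.

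**Figure D5:**
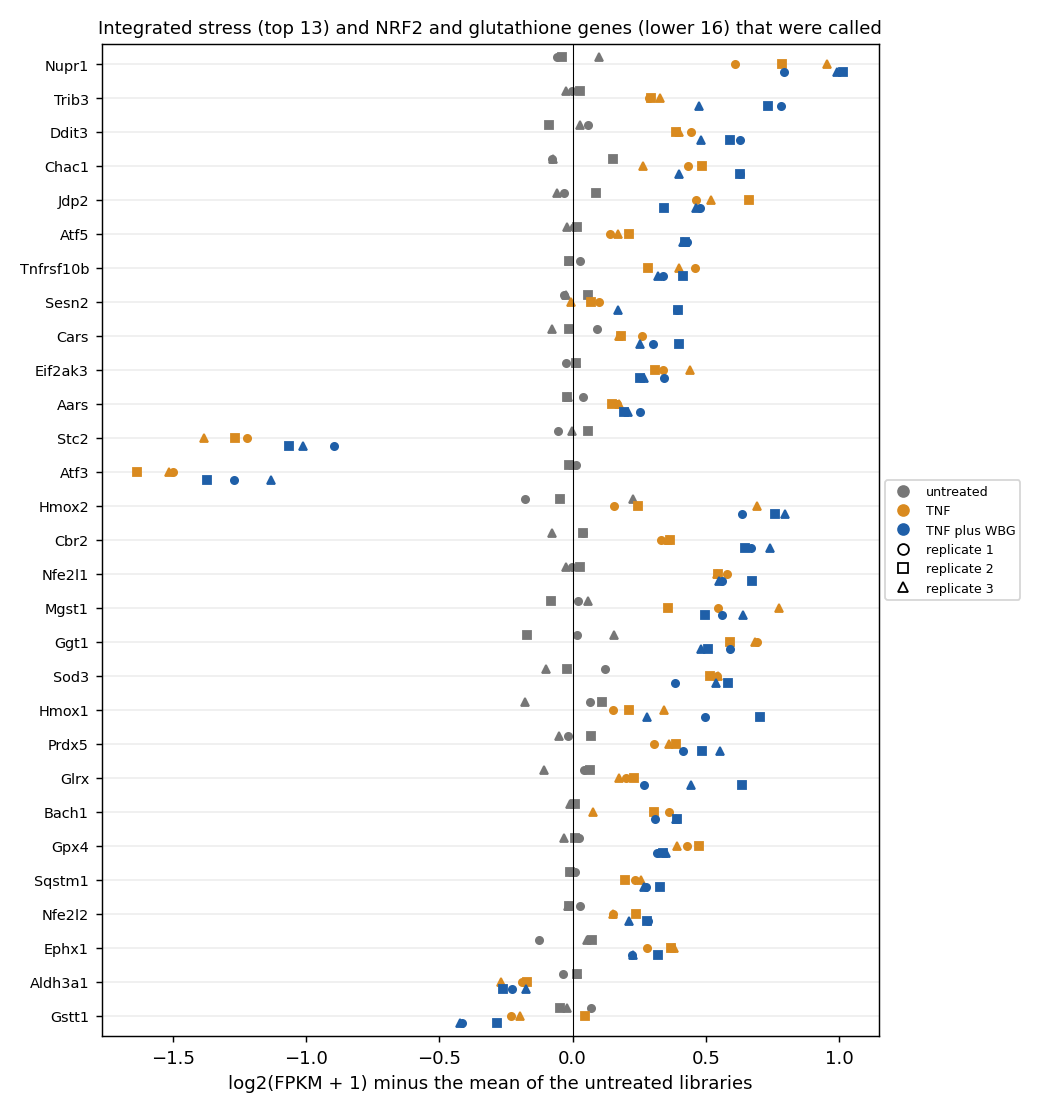
Each row is a called gene of the integrated stress list (upper 13) or of the NRF2 and glutathione list (lower 16), and each symbol is 1 library (grey untreated, orange TNF, blue TNF plus WBG, shape for the replicate), placed at its log2(FPKM + 1) minus the mean of the untreated libraries. In the upper set Nupr1 lies farthest to the right (0.93) and Atf3 farthest to the left (-1.26).

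Of 40 genes of endoplasmic reticulum folding tested 1 rose and 2 fell (median 0.02). Hspa5 (BiP), the main chaperone of that compartment, was at 132.6, 106.7 and 133.2 FPKM untreated and at 139.0, 144.5 and 139.0 FPKM with TNF plus WBG (0.19 ± 0.12, adjusted p = 0.399). Xbp1 was at 38.8 and 40.1 FPKM (0.05, adjusted p = 0.737) and Atf6 at 15.6 FPKM in both groups (-0.00, adjusted p = 0.992). Ern1, the sensor IRE1-alpha, rose from 7.79 to 9.79 FPKM (0.30 ± 0.06, adjusted p = 0.0111), while Pdia6, a disulphide isomerase, fell by 0.17 (W1) and Creb3l2, a membrane-bound bZIP transcription factor, by 0.16 (all but W3). The falls numbered 0 without W1 and 1 without each of U1, U2, U3, T1, T2, T3 and W2, and the rises 3 without W3. Of 48 heat shock genes 5 fell and 1 rose (12.5% called, against 9.19% of all genes), and 36 were below 0 (median -0.07). With TNF alone, against the same untreated libraries, 7 fell and none rose in this list, with a median of -0.07. Cryab, a small heat shock protein, was at 88.5, 84.6 and 88.9 FPKM untreated and at 47.2, 46.6 and 49.4 FPKM with TNF plus WBG, 1.83-fold lower (-0.86 ± 0.04, adjusted p = 2.02e-06). Hspd1, the mitochondrial chaperonin, fell from 229.9 ± 8.68 to 197.5 ± 1.65 FPKM (-0.22 ± 0.03), and Hspb7 from 2.11 to 0.98 FPKM (-0.66 ± 0.11). These 3 falls held in every omission. Those of Cct6a (-0.13; any of the 6 libraries compared) and Cct3 (-0.15; all but W3), subunits of the cytosolic chaperonin, and the rise of Stip1, which joins HSP70 to HSP90 (0.15; U1, U2, U3, T1, W1, W2, W3), did not. The falls numbered 3 without U1, U2, U3, W1 or W2, and 8 under quantile normalization. Hsf1, the heat shock factor, was at 21.5 and 21.8 FPKM (0.02, adjusted p = 0.962).

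The NRF2 and glutathione list held 14 rises and 2 falls among 57 genes tested (28.1%, median 0.05). With TNF alone, against the same untreated libraries, it held 11 rises and 3 falls, with a median of 0.02. Nfe2l2 (NRF2) was at 27.1, 26.3 and 26.2 FPKM untreated and at 32.5, 32.4 and 30.8 FPKM with TNF plus WBG (0.26 ± 0.04, adjusted p = 0.00523), and its relative Nfe2l1 rose 1.52-fold from 40.6 ± 0.72 to 61.9 ± 2.99 FPKM (0.59 ± 0.04). Among their targets Hmox1, which breaks down haem, was at 16.3 ± 1.81 FPKM untreated and at 23.5 ± 3.57 FPKM with TNF plus WBG (0.49 ± 0.12, adjusted p = 0.0293; U1, U3, W1, W2). Its constitutive relative Hmox2 rose from 13.8 to 23.5 FPKM (0.73 ± 0.15; U1, W2). Among the antioxidant enzymes, Gpx4, which protects membranes from lipid peroxidation, rose from 241.5 to 305.0 FPKM (0.34 ± 0.03, adjusted p = 0.000242), Prdx5 from 51.9 to 73.0 FPKM (0.48), Sod3, the extracellular dismutase, from 5.50 to 8.20 FPKM (0.50), Mgst1 from 17.3 to 26.1 FPKM (0.57) and Ggt1 from 17.0 to 24.8 FPKM (0.53). The enzymes that make glutathione were not called, on the log2 scale: Gclc was at -0.08, Gclm at -0.53 and Gss at -0.31. Srxn1 and Txnrd1, further NRF2 targets, were at 0.07 and -0.06, and Nqo1 did not pass the filter. The falls were Gstt1 (-0.37; U1, U3, W1, W3) and Aldh3a1 (-0.22; U2, U3, W1, W2). Of the 14 rises 9 held in every omission. The falls numbered 0 without U3 or W1, 1 without U1, U2 or W3 and 4 without T1. Of 19 xenobiotic genes tested 4 rose and 1 fell. TNF alone gave 6 rises and 1 fall there, without setting apart genes that passed the filter only through treated libraries. Abcb1b, a drug efflux pump, rose from 4.79 to 7.37 FPKM (0.53 ± 0.07) and its close copy Abcb1a from 0.63 to 1.78 FPKM (0.78; U3, W1; below 1 FPKM in every untreated library), a pair between which reads may be divided. Cyb5r3 rose by 0.20 and Cyp4v3 by 0.30 (U1, U2, U3, T2, W1, W2, W3), and Adh7, an alcohol dehydrogenase, fell from 23.0 to 17.6 FPKM (-0.36 ± 0.04). Ahr, the aryl hydrocarbon receptor, was at 5.73 and 5.00 FPKM (-0.17, adjusted p = 0.358), and its target Cyp1a1 did not pass the filter.

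Of 37 genes of iron and metal handling tested 7 rose and 1 fell (21.6% called with Slc11a1 and Trf counted, against 9.19% of all genes). Beside Steap4 and Tfrc, Slc11a2 (DMT1), which moves iron out of endosomes, was at 14.2, 14.8 and 14.9 FPKM untreated and at 28.6, 31.3 and 30.4 FPKM with TNF plus WBG (0.99 ± 0.05, adjusted p = 3.18e-06). Cp, ceruloplasmin, a copper ferroxidase, was at 75.6, 72.0 and 75.5 FPKM untreated and at 157.1, 189.3 and 188.2 FPKM with TNF plus WBG, 2.40-fold higher (1.24 ± 0.09, adjusted p = 4.14e-05). In both genes all TNF plus WBG libraries lay above all untreated ones. Slc11a1, a metal transporter of phagosomes, was at 0.11, 0.05 and 0 FPKM untreated and at 2.03, 1.14 and 1.36 FPKM with TNF plus WBG (1.24 ± 0.14). Trf, transferrin, rose from 0.90 to 2.48 FPKM (0.86 ± 0.13) and the copper importer Slc31a1 from 15.1 to 17.9 FPKM (0.23 ± 0.04). Slc11a1 and Trf reached 1 FPKM in no untreated library, so they passed the filter on low values only through treated libraries and their calls add nothing to the count. The other 5 rises held in every omission of 1 library. Pcbp1, an iron chaperone, fell by 0.14 on the log2 scale (all but W3). The ferritin chains Fth1 and Ftl1 were at 0.38 and 0.03, the exporter Slc40a1 at 0.09 and Ncoa4, which delivers ferritin to lysosomes, at -0.53, none called. With TNF alone, against the same untreated libraries, log2 fold changes were 0.73 for Slc11a2 and 0.78 for Cp.

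Of 35 p53 and growth arrest genes tested 13 rose and 2 fell (42.9%, median 0.16). Trp53 was at 91.3, 89.6 and 89.0 FPKM untreated and at 131.1, 127.5 and 136.8 FPKM with TNF plus WBG (0.55 ± 0.04, adjusted p = 2.94e-05). Cdkn1a (p21), which halts the cell cycle, was at 12.7, 13.9 and 12 FPKM untreated and at 19.3, 22.4 and 17.8 FPKM with TNF plus WBG (0.58 ± 0.08, adjusted p = 0.00253). Both genes had groups that did not overlap. Fas, a death receptor also induced by NF-kB, rose 5.29-fold from 1.17 to 6.17 FPKM (1.71 ± 0.13), Plk2 from 20.1 to 32.9 FPKM (0.68 ± 0.04) and the pro-apoptotic Bbc3 (PUMA) from 21.1 to 30.3 FPKM (0.51 ± 0.04). Mdm2, the p53 ligase and target, was at 0.19 and not called. Gadd45a, a stress-induced growth arrest gene, fell from 92.7 ± 1.34 to 63.3 ± 4.81 FPKM (-0.55 ± 0.05) and Sesn1 from 29.2 to 22.1 FPKM (-0.39 ± 0.05), while Gadd45b, an NF-kB target, rose from 32.6 to 46.8 FPKM (0.51 ± 0.07). Of the 13 rises 9 held in every omission, as did both falls. TNF alone gave 12 rises and 3 falls in this list, with 0.58 for Trp53, 0.39 for Cdkn1a and 0.98 for Plk2.

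The lysosome and autophagy list held 11 rises and 2 falls among 60 genes tested (21.7%, median 0.10). With TNF alone, against the same untreated libraries, it held 10 rises and 2 falls, with a median of 0.10. Sqstm1 (p62), an autophagy receptor and NRF2 target, was at 204.1, 201.5 and 203.0 FPKM untreated and at 245.9, 255.1 and 244.5 FPKM with TNF plus WBG (0.29 ± 0.03, adjusted p = 0.000378). Optn, another receptor, rose 1.86-fold from 1.98 to 3.70 FPKM (0.66 ± 0.10), and Gla, alpha-galactosidase, from 3.79 to 5.52 FPKM (0.44 ± 0.06). Scarb2, a lysosomal membrane receptor, fell from 80.5 ± 0.66 to 66.9 ± 0.66 FPKM (-0.26 ± 0.03) and Rubcn, which restrains autophagy, from 33.6 to 26.7 FPKM (-0.32 ± 0.05). Tfeb, the factor that drives lysosomal genes, was at 3.08 and 3.18 FPKM (0.04, adjusted p = 0.894). Manba rose by 0.37 (U1, U2, T2, W1, W2, W3). The count of 11 was 6 without U1, U2, U3 or W1, 5 without W2, and 7 without W3, with no filter or under quantile normalization.

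The medians of the 2 reference lists for growth were near 0. Shares called were 2.63% for replication and 2.17% for ribosomal proteins, against 9.19% of all genes. Of 38 replication genes Cdt1, a licensing factor, fell from 12 to 8.91 FPKM (-0.40; U1, U3, W2), with a median of 0.00. Of 46 ribosomal protein genes Rpl10a rose from 961.2 ± 15.3 to 1211 ± 32.7 FPKM (0.33 ± 0.04, adjusted p = 0.000872), with a median of 0.01, and the count was 2 without W1. In GENCODE M21, exons of another gene overlap those of Aars, Abcb1a, Abcb1b, Abr, Acss2, Adh7, Ahr, Aldh1l2, Atf5, Bhlhe40, Cars, Cct6a, Cd74, Cdkn1a, Chka, Cp, Cryab, Cyb5r3, Cyp4v3, Cyp51, Ddit3, Eif2ak1, Eif2ak2, Eif2ak3, Exosc6, Fam162a, Fdft1, Fdps, Fen1, Ftl1, G6pdx, Gadd45a, Gapdh, Gart, Gclm, Glul, Gss, Hif1a, Hk1, Hmgcs1, Hmox2, Hspd1, Il1b, Itgam, Map2k7, Mars, Mdh1, Me1, Nek7, Npc1, Nr1h3, Optn, Pcbp1, Pcyt1a, Pdia6, Pkm, Prdx5, Rpl10a, Rubcn, Scd2, Slc11a2, Slc43a2, Slc6a6, Spp1, Sqstm1, Srebf1, Tpi1, Trf, Uchl1, Zmym1, mt-Atp6 and mt-Nd4, and reads in shared positions cannot be told apart. Mitochondrial and ribosomal mRNAs, Gapdh, Amd1 and Abcb1a with Abcb1b have near-identical copies, so their values are uncertain in the same way.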

How the data were processed

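RNA was measured by poly-A RNA sequencing in 9 libraries, 3 in each group. The authors deposited 1 table of FPKM values per gene, which is the only file used. For the aligner, quantifier, annotation and build the value is not given in the sources used here. FPKM hold no counts, so depth is not known, and the range in the report is only a rough inference. Symbols came from GENCODE M21 (55144 of 56289 identifiers). Where 2 identifiers shared a symbol, the one with the higher mean was used.

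Genes at 1 FPKM or more in at least 3 libraries were fitted as log2(FPKM + 1) with limma 3.58.1 (R 4.3.3; trend, all 9 libraries, group only). Tests were two-sided, with Benjamini-Hochberg adjustment over 13026 genes. Folds are ratios of mean FPKM, and log2 values contain the pseudocount of 1, which understates changes of low genes. Errors after ± are SD for FPKM and standard errors for log2 fold changes, over 3 libraries per group.

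The naming rule took the 8 largest rises and 8 largest falls (called, not overlapping, at least 5 FPKM in the higher group, no predicted names), up to 3 called genes per direction and list (2 in reference lists; the largest change where none was called), a set of regulators and key enzymes, and every gene called against TNF. Members, lists and rules were chosen with earlier results of these data known. Alternatives were 2 other pseudocounts, 2 other filters, median-ratio and quantile scaling, only the 6 libraries compared, no trend, a replicate block and omission of each library. The fit was tested on simulated data. Some members that count in their lists are not reported here by name.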

Additional observations from a re-analysis of the deposited data

How the results depend on the processing

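For TNF plus WBG against untreated, the 719 rises were 495 to 677 and the 478 falls 319 to 436 when each library was left out in turn, and no other alternative moved either count by more than 1.5 times. For TNF plus WBG against TNF, the 4 genes called down were 1 with only the 6 libraries compared and 1 to 5 over the omissions. For TNF against untreated, the 549 falls were 353 to 515 over the omissions. No direction reversed. The causes were not tested.

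The labels do not state whether the replicate numbers of the titles pair the samples. Correlations of deviations from the group means ran from -0.07 to 0.11 between same-numbered libraries of different groups. Between libraries with unlike numbers they ran from -0.10 to 0.09. Values of this size do not settle whether the samples were paired. With the replicate number as a block, 642 genes were called up and 404 down against untreated, and 6 up and 2 down against TNF.

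FPKM without counts give no interval for low genes, and 3 libraries a group limit the precision. Many list counts that moved by more than 1.5 times are given beside their lists, but not all. Over the omissions of 1 library, the rises were 0 to 2 for sphingolipids and 0 to 2 for lipid droplets and uptake. For the pentose phosphate list they were 1 to 3.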

Other observations

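Of the genes tested, 24 differed by at least 2-fold between TNF plus WBG and untreated on the fitted scale without being called, and in 17 of them the groups overlapped. Several stood at separate levels within 1 group. Map2k7, a stress kinase of the JNK pathway, was at 4.96, 16.4 and 5.28 FPKM untreated and at 17.5, 16.5 and 16.7 FPKM with TNF plus WBG. Aen, a p53-induced nuclease, was at 3.5, 13 and 3.37 FPKM untreated and at 11.5, 12.9 and 11.8 FPKM with TNF plus WBG. Fen1, the flap endonuclease of replication, was at 2.58, 2.60 and 10.3 FPKM untreated and at 9.75, 8.79 and 10.5 FPKM with TNF plus WBG. Nek7, a kinase needed by the NLRP3 inflammasome, was at 26.4, 25.5 and 26.4 FPKM untreated and at 6.77, 6.68 and 22.5 FPKM with TNF plus WBG. Exosc6, an exosome subunit, was at 14.6, 12.1 and 12.5 FPKM untreated and at 11.8, 0.24 and 11.3 FPKM with TNF plus WBG. These genes were chosen after their values were seen.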
